A study of Rattus norvegicus with 16 samples.

Results

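The strain difference in air was taken from the left ventricles of 4 spontaneously hypertensive rats (SH-air) and 4 Wistar Kyoto rats (WKY-air), which are 8 of the 16 arrays of the series. All 15866 probe sets of the Affymetrix Rat 230A array other than its 57 controls were compared, with no selection on their values. The rats of all groups were males of 12 to 14 weeks, exposed whole body on 5 days a week for 4 weeks, with a daily exposure that the labels give as 6 hr and the methods as shorter. The other 8 arrays, 4 SH-DE and 4 WKY-DE, came from rats of the same strains that inhaled diesel exhaust (DE) at 2.0 mg/m3. They entered here in 2 ways, through the estimate of the spread between arrays and as a separate comparison of the same strains. Each array is a biological replicate, and the heart tissue was left ventricle with septum after the right ventricle had been removed. The rats of both strains were bought from 1 supplier, so the comparison holds everything in which these lines differ, blood pressure included.

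The SH rat is an inbred line that was selected from Wistar Kyoto stock for high blood pressure, and its left ventricle works against a raised pressure and thickens with age. The adult ventricle takes most of its energy from fatty acids, which reach the muscle cell through lipoprotein lipase and the transporter CD36 and are burned in the mitochondria. Fibroblasts between the muscle cells make the collagen matrix. The muscle cells of the atria carry their own light chains of myosin, which the adult ventricle largely lacks.

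Values are MAS5 signals on a linear scale, and log2 differences are SH minus WKY of log2(signal + 16.1), which understates the change of dim genes. The median signal of an array was 173 to 197 in SH-air and 178 to 192 in WKY-air, and the 3' to 5' signal ratio of GAPDH, a sign of RNA integrity, was 1.23 to 1.41 and 1.30 to 1.35. The DE groups differed in median signal, at 185 to 194 in SH-DE and 209 to 216 in WKY-DE. The share of values below 16.1 was 9.53 to 11.1% in SH-DE and 7.82 to 9.22% in WKY-DE. The part of this shift in the strain differences under DE was not tested. Markers of ventricular muscle were bright in both groups. Myh6, the α-myosin heavy chain, averaged 34534 ± 3019 over the 4 SH-air arrays and 36414 ± 9889.6 (± SD) over the 4 WKY-air arrays, and Tnni3, cardiac troponin I, averaged 36196 ± 2761 and 39044 ± 4756. None of the 10 ventricular markers measured passed the test.

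The atrial markers Myl7, Myl4 and Sln separated the air groups. Myl7, the atrial regulatory light chain, had signals of 33.5, 154, 33.4 and 75 in SH-air and 25946, 4415, 11451 and 9718 in WKY-air. Myl4, the atrial essential light chain, had 103, 163, 129 and 92.3 in SH-air and 8624, 1654, 3941 and 3504 in WKY-air. Sln, sarcolipin, an atrial inhibitor of the calcium pump, had 174, 105, 68.1 and 31.1 and 8873, 1471, 2968 and 2225. Every WKY-air array was thus at least 1471 for Sln, above the highest SH-air array of 174. Of the 12 atrial markers measured, 6 were called, all lower in SH-air, and the summed signal was 26491 to 39214 in SH-air and 51248 to 124099 in WKY-air. The other 6, Nppa among them, were not called, and the log2 differences of the 12 ran from −7.08 to 0.83. Under DE the groups overlapped, with Myl7 at 94.2, 1443, 7876 and 187 in SH-DE and 657, 404, 9629.5 and 2927 in WKY-DE. In air, strain and atrial signal therefore cannot be told apart, and the part of atrial tissue in each strain difference was not tested.

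An array of the DE groups also stood apart. Over the 136 probe sets that differed more than 2-fold in air, each array was placed on a scale from 0, the WKY-air mean, to 1, the SH-air mean. The median position of SH-DE replicates 1, 2 and 4 was 0.929, 0.889 and 0.913, and that of SH-DE replicate 3 was 0.558. The 4 WKY-DE arrays lay between 0.272 and 0.458. Among the 41 probe sets called between the strains in both exposures, SH-DE replicate 3 was the SH-DE array closest to WKY in 38. The array took no part in the means of the air groups, and DE values whose call changes without it are given both ways. Why it lay between the strains was not tested.

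In air, 401 of the 12783 probe sets assigned to 1 gene (3.14%) passed the limma test, with a Benjamini-Hochberg adjusted p under 0.05 and, before adjustment, a p under 0.01. Of these, 168 were higher and 233 lower in SH rats. Counted once per gene by its probe set of highest mean signal, 138 of 10411 genes were higher (1.33%) and 201 were lower (1.93%). The differences were mostly modest, with a median size of 0.80 on the log2 scale against a median SE of 0.21 over all probe sets. Only 136 of the 401 exceeded 2-fold (50 higher, 86 lower) and 25 exceeded 4-fold (5 higher, 20 lower). In 391 of the 401 the 4 SH-air arrays did not overlap the 4 WKY-air arrays. The test that selected the 401 used these same arrays, so this separation largely follows from the selection. The share of all probe sets without overlap in air was not counted beside it. The count fell to 231, 226 and 197 without SH-air replicate 1, 2 or 4, and to 254 and 208 without WKY-air replicate 1 or 4, and the lower ones to 142 without WKY-air replicate 3. With the mean log2 signal of Myl7, Myl4 and Sln as a covariate, 5 probe sets were called. They were those of Creg1, Eno1 and Fry, higher in SH rats, and of Lsr and Erbb3, lower, the last 2 named after their values were seen. Erbb3 was not among the 401, and its log2 difference went from −0.77 to −2.34 with the covariate. In air this covariate nearly followed strain, at 6.28 to 7.27 in SH-air and 11.1 to 13.6 in WKY-air. The fit therefore cannot show which differences depend on atrial signal and which do not. In bulk tissue, fewer cells of a type and less RNA per cell cannot be told apart.

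**Figure D1:**
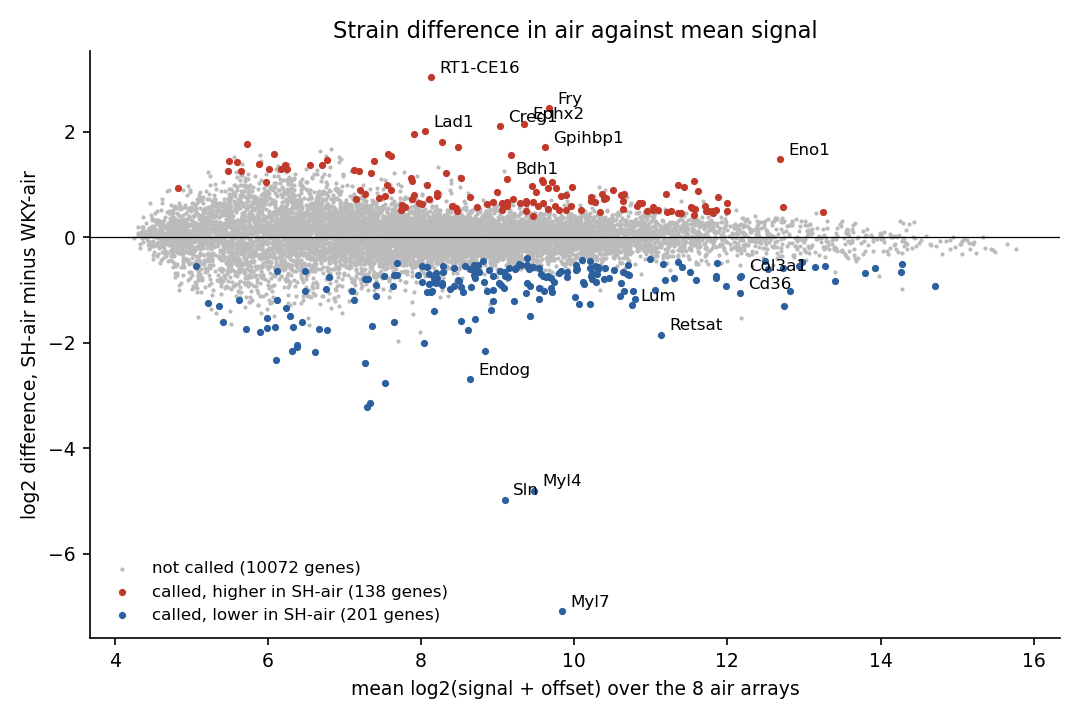
Strain difference in air of 10411 genes, each by 1 probe set. The x axis is the mean log2(signal + 16.1) of the 8 air arrays and the y axis the log2 difference, SH-air minus WKY-air, with called genes in red (138 higher in SH-air) and blue (201 lower). The atrial genes Myl7, Myl4 and Sln lie farthest below 0, and Eno1 stands out among the bright genes above it.

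The same strain contrast in the DE groups, whose means share no array with those in air, called 90 probe sets (0.704%). Both contrasts used the same estimate of spread for each probe set, taken over the arrays of all groups. A probe set with a small spread is favoured in both, so the calls in air and under DE are not independent. Of the 401 called in air, 325 kept their direction under DE (81.0%, against 53.6% of all probe sets), that is 131 of the 168 higher and 194 of the 233 lower. The 41 probe sets of 38 genes that were called in the same direction made up 10.2% of the air calls and 45.6% of the DE calls. Of these, 29 were higher and 12 lower in SH rats. Without SH-DE replicate 3 the DE contrast called 166 probe sets, 73 of the 401 air calls among them, including all 41. Without SH-DE replicate 2, 26 probe sets were called alike in both exposures. The SH-DE and WKY-DE arrays did not overlap, in the direction seen in air, for 126 of the 401 (31.4%), against 8.81% of all probe sets in either direction. The median difference of the higher calls was 0.76 in air and 0.26 under DE, and that of the lower calls −0.85 and −0.26, where the air values are the larger partly by construction, since those values selected the probe sets.

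**Figure D2:**
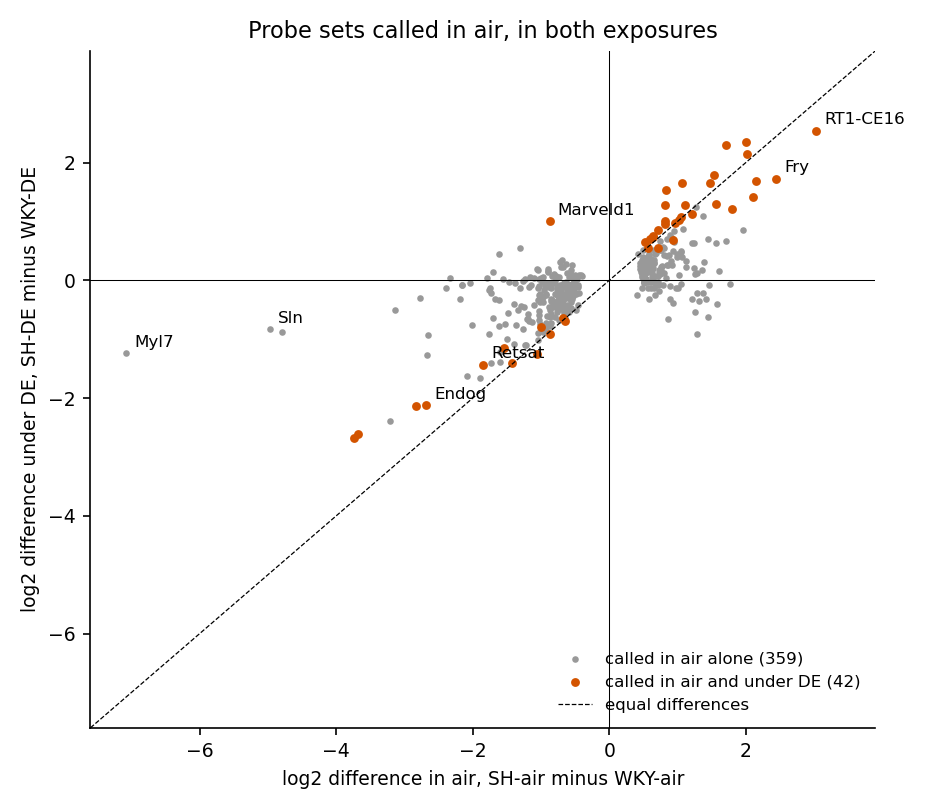
Log2 difference between the strains in air (x axis) and under DE (y axis) for the 401 probe sets called in air. Orange points were called in both exposures, and the dashed line marks equal differences. The orange points follow the line apart from Marveld1, which changes direction, while Myl7, Myl4 and Sln, far to the left, lie well above it, at −1.24, −0.87 and −0.83 under DE (−2.40, −1.72 and −1.99 without SH-DE replicate 3, uncalled in both cases).

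Among the genes that separated the strains in both exposures, Ephx2 encodes soluble epoxide hydrolase, which degrades vasodilator epoxides of arachidonic acid. Its signal was 1301, 1158, 1599.6 and 1415 in SH-air and 261, 260.2, 355 and 309 in WKY-air, a 4.44-fold difference (log2 difference 2.15, SE 0.19, limma adjusted p = 2.15e-05). Under DE it was 1172, 1391, 756 and 1273 in SH rats and 359, 325, 409 and 265 in WKY rats, so that all 8 SH arrays lay above all 8 WKY arrays. Fry, a large protein that binds microtubules, had 2116, 1853, 1849.8 and 1775 in SH-air against 295, 341, 401 and 308 in WKY-air (log2 difference 2.45, SE 0.21, limma adjusted p = 1.75e-05), and the difference under DE was 1.73. The second probe set of Fry, dim in both groups, was not called (log2 difference −0.12). Creg1, a glycoprotein of the lysosome that restrains growth, had 951, 956, 1055 and 1357 in SH-air and 230.3, 303, 201 and 218 in WKY-air (log2 difference 2.11, SE 0.18, limma adjusted p = 1.75e-05). Both of its probe sets were called in air, the other at 1.25 on the log2 scale.

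Eno1, the glycolytic enzyme enolase 1, was bright and varied little within the groups. The SH-air arrays read 11398, 10499, 11181 and 10865 and the WKY-air arrays 3943, 3957, 3951 and 3848 (log2 difference 1.48, SE 0.11, limma adjusted p = 6.74e-06), and under DE the difference was 1.65 with a limma adjusted p of 3.93e-06. Eno3, its muscle form, differed by −0.14 in air and was not called (limma adjusted p = 0.786). Lad1, ladinin-1, a protein of the basement membrane, had 448, 414, 647 and 608 in SH-air and 192, 116, 67.5 and 118 in WKY-air, with a log2 difference of 2.02 in air and 2.15 under DE. Il2rb, the β chain of the interleukin-2 receptor, read 615, 515, 540.5 and 576 against 120.1, 164, 155 and 166 (log2 difference 1.79, SE 0.16, limma adjusted p = 2.01e-05), although none of the 13 lymphocyte markers measured was called. Pla2g12a, a secreted phospholipase A2, read 528 to 858 in SH-air and 95.4 to 244 in WKY-air, and its difference was 1.71 in air and 2.30 under DE. For these genes the groups did not overlap in either exposure, which in air largely follows from how the genes were selected. Without SH-DE replicate 3 the DE differences of Ephx2, Fry, Creg1 and Eno1 were 1.88, 1.87, 1.56 and 1.76.

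Endog, a nuclease of the mitochondria, was lower in SH rats, with signals of 233, 129, 127 and 101 in SH-air and 968, 1019, 1147 and 854 in WKY-air (log2 difference −2.68, SE 0.35, limma adjusted p = 0.000957). SH-DE replicate 3 stood at 388, while the other SH-DE arrays were between 70.3 and 137 and WKY-DE between 624 and 857. The difference under DE was −2.12, or −2.54 without that array. Retsat, retinol saturase, read 1119.7, 1102, 1354 and 1106 in SH-air and 3909.8, 4462, 4134 and 4449 in WKY-air (log2 difference −1.85, SE 0.23, limma adjusted p = 0.000558). Homer2, a scaffold protein of calcium signaling, read 200.4, 199, 239 and 279.9 against 677, 664, 719.7 and 716 (log2 difference −1.54, SE 0.18, limma adjusted p = 0.000423). For Retsat and Homer2, too, SH-DE replicate 3 lay between the strains, at 2697 and 433, against 3687 to 3995 and 602 to 693 in WKY-DE.

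**Figure D3:**
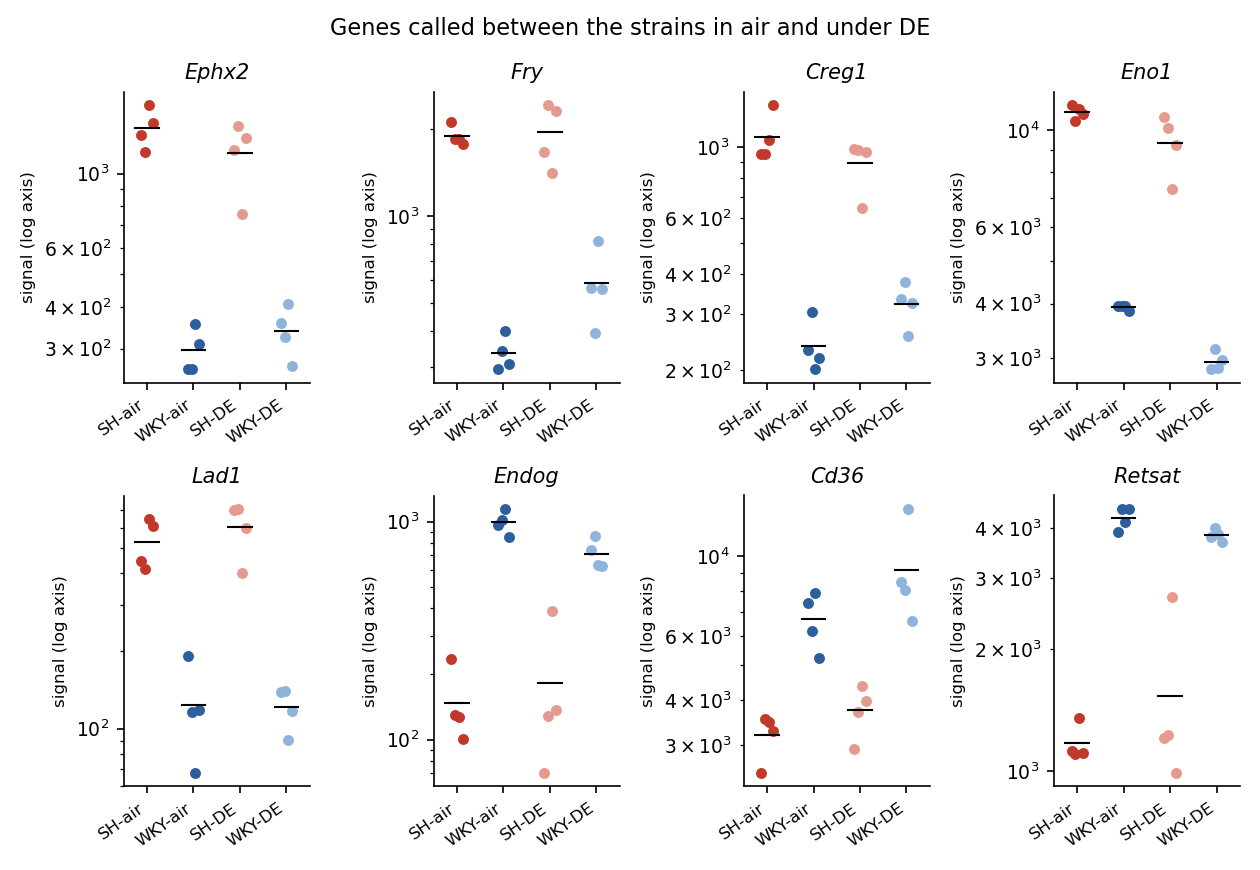
MAS5 signal, on a log axis, of 8 genes called between the strains in air and under DE. Each point is 1 array and each bar the mean of 4 arrays, for SH-air, WKY-air, SH-DE and WKY-DE. The strains separate in both exposures for every gene shown. SH-DE replicate 3 is the lowest SH-DE point of Ephx2, Fry, Creg1, Eno1 and Lad1 and the highest of Endog, Cd36 and Retsat.

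The remaining genes called in both exposures, most of them outside the naming rule and chosen after their values were seen, covered metabolism, signaling and the cytoskeleton. Higher in SH rats were C18h5orf63 (1.56 in air), the carboxylesterase Ces1c (1.54), Impa2, an inositol monophosphatase (1.22), Bdh1 (1.11), the inflammatory transcription factor Cebpb (1.06), Tfpi, the inhibitor of the tissue factor pathway of clotting (1.05), and the catalytic subunit of casein kinase 2, Csnk2a1 (1.02). Smaller differences were found for Wfdc1 (0.97), Arpc4 of the actin-branching complex (0.93), the GTPase Rras2 (0.82), Enah (0.82), Akip1 (0.82), glutamate dehydrogenase Glud1 (0.71), Cox14, an assembly factor of cytochrome oxidase (0.65), Rtn4ip1 (0.64), Pphln1 (0.59), the cardiac protein Lrrc10 (0.57) and Mcrip2 (0.52). Lower in SH rats were Ythdf2, a reader of methylated RNA (−2.82), Art1 (−1.43), Cd36 (−1.05), Islr (−1.01), the phosphatase Dusp1 (−0.86), Lmo7 (−0.68) and Col15a1 (−0.65). For Csnk2a1, Glud1, Ythdf2 and Art1 the probe set called is not the brightest of the gene. The brightest one of Csnk2a1 differed by 0.027 in air and was not called, whereas that of Ythdf2 was called at −0.52 and that of Glud1 at 0.49, and that of Art1 differed by −0.44 and was not called. The second probe sets of Tfpi, Dusp1, Enah and Rtn4ip1 differed by −0.094, −0.078, −0.33 and 0.13 in air and were not called. For Akip1, 3 probe sets were called in both exposures, with air differences of 0.83, 0.72 and 0.82. Of the 41 probe sets, 22 had a larger difference under DE than in air, and 4 had an unadjusted interaction p under 0.05.

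The promoters of 32 of the 38 genes called in both exposures were found by symbol in the RefSeq promoter table. Sequences of 250 bases before the start are shown for Creg1 and Fry, higher in SH rats, and Endog and Cd36, lower in them, because these genes carry the strain difference in both exposures. They are those of the RefSeq reference genome, build GRCr8, and not of the SH or WKY rat. Creg1 lies at chr13:80552571-80552820, plus strand, Fry at chr12:9773392-9773641, minus strand, Endog at chr3:33846685-33846934, plus strand and Cd36 at chr4:18246332-18246581, plus strand. Capitals mark matches, on either strand, to the TATA box, the GC box, the CCAAT box or the E-box, which were chosen after the values were seen and do not overlap one another in these windows.
Creg1: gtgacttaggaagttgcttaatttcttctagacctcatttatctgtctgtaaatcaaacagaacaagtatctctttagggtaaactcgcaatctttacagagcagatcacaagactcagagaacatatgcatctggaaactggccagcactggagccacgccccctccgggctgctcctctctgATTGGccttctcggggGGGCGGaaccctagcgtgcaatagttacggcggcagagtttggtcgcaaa
Fry: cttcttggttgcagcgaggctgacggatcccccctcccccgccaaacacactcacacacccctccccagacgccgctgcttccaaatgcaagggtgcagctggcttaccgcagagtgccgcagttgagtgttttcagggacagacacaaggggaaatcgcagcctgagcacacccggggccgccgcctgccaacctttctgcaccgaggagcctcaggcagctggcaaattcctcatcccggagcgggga
Endog: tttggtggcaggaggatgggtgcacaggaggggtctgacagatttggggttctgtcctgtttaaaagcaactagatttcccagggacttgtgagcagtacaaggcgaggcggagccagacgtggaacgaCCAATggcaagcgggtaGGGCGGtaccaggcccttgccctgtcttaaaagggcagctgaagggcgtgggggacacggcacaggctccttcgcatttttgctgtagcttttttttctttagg
Cd36: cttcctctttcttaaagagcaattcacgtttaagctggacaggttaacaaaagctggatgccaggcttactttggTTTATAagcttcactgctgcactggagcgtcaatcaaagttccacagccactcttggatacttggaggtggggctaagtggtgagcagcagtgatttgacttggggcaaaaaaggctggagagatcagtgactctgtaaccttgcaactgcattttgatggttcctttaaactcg
Creg1 and Endog each held 1 GC box and 1 CCAAT box, Cd36 held 1 TATA box on the minus strand, and Fry held none of these letters. The GC box, searched as GGGCGG, was present in 17 of the 32 promoters (53.1%) and in 32.4% of 27457 promoters of the same length. These 27457 were not limited to genes on the array or detected in heart, so the shares do not compare like genes. The CCAAT box, searched as its name spells it, was in 13 (40.6%) and in 34.3%. The TATA box, searched as TATAAA, was in 3 (9.38%) and in 13.1%. The E-box, searched as CACGTG, was in 3 (9.38%) and in 5.79%. A match is a description of the letters, and binding was not measured.

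Genes of fatty acid metabolism were called in both directions. Cd36, the fatty acid transporter, which is known to be altered in SH lines, had signals of 2513, 3542, 3465 and 3273 in SH-air and 7415, 6197, 7888 and 5238 in WKY-air (log2 difference −1.05, SE 0.21, limma adjusted p = 0.0157), and the groups did not overlap. Under DE it read 2923 to 4374 in SH rats and 6628 to 13527 in WKY rats. Gpihbp1, which holds lipoprotein lipase on the capillary wall, read 1362, 1455, 1475 and 1333 in SH-air and 421, 556, 231 and 563 in WKY-air (log2 difference 1.71, SE 0.24, limma adjusted p = 0.00118). Its difference was 0.68 under DE, where it was not called, and the interaction had an unadjusted p of 0.00749. Pnpla2, adipose triglyceride lipase, was 1.43-fold higher (log2 difference 0.51, SE 0.12, limma adjusted p = 0.03). The other 19 of 22 genes of fatty acid uptake were not called, and the list had a median difference of 0.074 beside 0.021 over all genes.

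Of 32 measured genes of fatty acid oxidation, 5 were higher in SH-air and none was lower, beside the 1.33% and 1.93% of all genes against which each list's count is to be read, with a median difference of 0.27 in air and 0.12 under DE. The largest was Bdh1, which interconverts ketone bodies, at 795, 739, 971 and 735 in SH-air and 349, 495, 264 and 384 in WKY-air (log2 difference 1.11, SE 0.18, limma adjusted p = 0.00432), although its second, more variable probe set differed by −0.29 and was not called. Crat, carnitine acetyltransferase, read 2920.0 to 4010.1 in SH-air and 2125 to 2646 in WKY-air. Slc25a20, the carnitine carrier of the inner membrane, differed by 0.55, Eci2, an isomerase of unsaturated fatty acids, by 0.50, and Mlycd, which removes the malonyl-CoA that blocks fatty acid entry, by 0.60. Of these 5, Bdh1 was the one called under DE too. Bdh1 also stayed called without any 1 array, whereas Crat, Slc25a20, Eci2 and, in the list of uptake genes, Pnpla2 each lost the call without SH-air replicate 4 and without some other air arrays. Under DE Slc25a20 differed by −0.034, with an unadjusted interaction p of 0.00647. Acot2 (1.08, limma adjusted p = 0.0641) and Pdk4, the brake on pyruvate oxidation (0.89, limma adjusted p = 0.0794), missed the threshold, and Cpt1b, the gate of fatty acid entry, read 7211 ± 646 and 7120.3 ± 358.

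Other energy genes moved singly. Eno1 was the 1 gene called of 27 of glycolysis and glycogen, which had a median of 0.083. Pdhx, a subunit of pyruvate dehydrogenase, was the 1 called of 23 of the tricarboxylic acid cycle, with 2383, 2346, 2436 and 2268 in SH-air and 1496, 1677, 1654 and 1206 in WKY-air (log2 difference 0.65, SE 0.13, limma adjusted p = 0.0136). Ndufs1, of complex I, was the 1 called of 60 of the respiratory chain, at 11479 ± 752 and 8224 ± 945, a count near the share of all genes, while the list's median was −0.10 in air and 0.11 under DE. Of 46 antioxidant genes, Sod2, the mitochondrial superoxide dismutase, was higher at 4437 ± 475 against 3100.3 ± 351, and Sod3, the extracellular one, was lower at 957 ± 151 against 1442 ± 93.1. Pdhx stayed called without any 1 array, and Ndufs1, Sod2 and Sod3 each lost the call without SH-air replicate 1, among others. Neither Pdhx, Ndufs1, Sod2 nor Sod3 was called under DE, where they differed by 0.30, 0.085, 0.13 and 0.056.

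Few contractile and electrical genes of the ventricle passed the test. Of 30 sarcomere genes the 1 called was Myh7, the β-myosin heavy chain, which read 18587 to 20833 in SH-air and 35097 to 39324 in WKY-air (log2 difference −0.93, SE 0.18, limma adjusted p = 0.0123). Both of its probe sets were called, and the difference under DE was −0.78 (limma adjusted p = 0.0567), or −0.96 and called without SH-DE replicate 3 (limma adjusted p = 0.00576). None of 33 genes of calcium handling and none of 32 ion channels and pumps was called, and their medians were −0.069 and 0.06, with single genes from −1.06 to 1.24 and from −0.62 to 0.83. Atp2a2, the calcium pump of the sarcoplasmic reticulum, read 49479.5 ± 1254 in SH-air and 54515 ± 9079 in WKY-air, and Ryr2, its release channel, 4544 ± 491 and 3644 ± 862. Of 17 genes of stretch and hypertrophy, Enah was higher and Myh7 lower. The natriuretic peptide Nppb read 18461 ± 996 and 18390.0 ± 4104, and Nppa, which the atria make in large amounts, 14839 ± 5515 and 30316 ± 14568 (limma adjusted p = 0.178).

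Of 52 genes of blood pressure hormones and their receptors, 3 were called. Besides Ephx2, Ephx1, the microsomal epoxide hydrolase, was higher, at 430.5, 383, 401 and 411 in SH-air and 273, 252, 321 and 284 in WKY-air (log2 difference 0.50, SE 0.12, limma adjusted p = 0.0343). Under DE its difference was −0.033, with an unadjusted interaction p of 0.00662. Gucy1b1, a subunit of the nitric oxide receptor guanylyl cyclase, was lower, at 129, 113, 98.2 and 82 against 162, 206, 199 and 205 (log2 difference −0.79, SE 0.16, limma adjusted p = 0.0168), and differed by −0.62 under DE. Ephx1 lost the call without any 1 of the SH-air arrays, and Gucy1b1 without SH-air replicate 4. Ace, the angiotensin-converting enzyme, was dim and variable, at 116 ± 43.1 and 65.9 ± 35.5 (limma adjusted p = 0.26), and Nos3, the endothelial nitric oxide synthase, differed by −0.54 (limma adjusted p = 0.0641).

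A list of genes that rat genetics has tied to the SH rat had 8 measured members, of which Ephx2, Endog and Cd36 were called in both exposures. The other 5 were not called. Gstm1, a glutathione transferase, read 700.0, 844, 800.0 and 789.9 in SH-air and 697, 630.0, 529 and 554 in WKY-air (log2 difference 0.38, SE 0.15, limma adjusted p = 0.202), so that the groups did not overlap although the adjusted p missed the threshold. Acsm3 differed by 0.77 with an SE of 0.48, Srebf1, a regulator of lipid synthesis, by −0.14, Ogn, osteoglycin, by −0.093 and Folr1, the folate receptor, by 0.053. These differences are within 2 SE of 0 except that of Gstm1.

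Genes of antigen presentation differed in both directions, with RT1-CE16 at the largest difference of the higher genes and RT1-Bb at the largest of the lower genes other than Myl7, Myl4 and Sln, each gene read by its brightest probe set. RT1-CE16, a class I gene of the major histocompatibility complex, had 716, 884, 796 and 737 in SH-air and 79.3, 73.1, 106 and 72.1 in WKY-air (log2 difference 3.02, SE 0.32, limma adjusted p = 0.000152). RT1-Bb, a class II β chain, had 56.4, 106, 11.7 and 12.8 against 387, 547, 427 and 511 (log2 difference −3.21, SE 0.54, limma adjusted p = 0.00555), and SH-DE replicate 3, at 309, was far from the 29 to 76.3 of the other SH-DE arrays. The DE difference of RT1-Bb was −2.38 (limma adjusted p = 0.0567) with that array and −2.98 (limma adjusted p = 0.00262) without it. The dimmer probe set of RT1-Bb went the other way, averaging 59.4 in SH-air and 10.4 in WKY-air. It was not called (log2 difference 1.43, limma adjusted p = 0.0664). RT1-CE5, another class I gene, had 4 of 5 probe sets lower in SH-air. That of the largest difference read 1.47, 1.8, 2.8 and 10.4 in SH-air, near background, and 288, 199, 255 and 261 in WKY-air, with 2.45, 6.41, 70.5 and 3.83 in SH-DE. For RT1-Ba, a class II α chain, the probe sets opposed each other, since the brighter one was lower in SH-air (−1.05) and the other higher (2.00). In all, 1 of 25 genes of the list was higher and 5 were lower, the others being RT1-Ba, B2m (−0.51) and the immunoproteasome subunit Psmb10 (−0.61). RT1 genes are near copies of one another and vary between strains, so which copy a probe set reads is uncertain.

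Interferon-induced genes did not move one way. Ifit1 was higher, at 530.5, 528, 331 and 478 against 145, 141, 37.8 and 149 (log2 difference 1.95, SE 0.33, limma adjusted p = 0.0054), whereas Ifi27, at 4360.1 to 5504 against 9337 to 11644, and Irf9, a subunit of the interferon-activated transcription factor, at 166 to 239.9 against 265 to 351, were lower. The other 26 of 29 were not called. Of 40 genes of complement and inflammation, Cebpb was higher and the complement protease C1r lower (−0.69). Macrophage markers summed to 14244 to 16391 in SH-air and 13712 to 16693 in WKY-air, and of 14 only Ctss, cathepsin S, was called (−0.83 in air, 0.082 under DE).

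Matrix genes and fibroblast markers that passed the test were lower in SH-air, with 1 exception. Of 17 collagens 6 were lower and none higher (median −0.56), of 49 other matrix genes 10 were lower and 1, Ccn1, was higher (median −0.37), and of 14 fibroblast markers 9 were lower (median −0.62). Emilin1, an elastic fiber glycoprotein, read 57.1 ± 35.7 against 345 ± 78.8, Col5a3, a minor fibrillar collagen, 14.6 ± 0.947 against 144 ± 52.5, and Fmod, fibromodulin, 217 ± 99.1 against 1053 ± 504. Col3a1, of fibrillar collagen, read 4027, 3977, 2988 and 3411 in SH-air and 7273, 5187, 6159.9 and 5336 in WKY-air (log2 difference −0.73, SE 0.15, limma adjusted p = 0.0203). Lum, lumican, which spaces collagen fibrils, read 1058, 1168, 967 and 1166 and 3229, 1976, 2759.6 and 2900.0 (log2 difference −1.29, SE 0.23, limma adjusted p = 0.0086). Pdgfra, a receptor that marks fibroblasts, read 537, 649, 547 and 582 and 985, 1167, 1127 and 1318 (log2 difference −0.97, SE 0.15, limma adjusted p = 0.00287). In each of these genes all SH-air arrays were below all WKY-air arrays, which largely follows from how the genes were selected. Lum and Pdgfra stayed called without any 1 array, while Col3a1 lost the call without SH-air replicate 3 or 4 or WKY-air replicate 1. Tcf21, a fibroblast transcription factor, was at 238 ± 4.94 and 240.5 ± 35.9.

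Under DE these lists lay near the median of all genes. The medians of collagens, of other matrix genes and of fibroblast markers were −0.02, −0.043 and −0.064 in SH-DE against WKY-DE, beside −0.073 over all genes, and the differences of Col3a1, Lum and Pdgfra were −0.11, −0.43 and 0.061 (−0.22, −0.39 and −0.01 without SH-DE replicate 3). Their unadjusted interaction p were 0.0133, 0.0186 and 0.000191, none past the adjusted threshold. Mgp, matrix Gla protein, went from −0.67 in air to 0.22 under DE, and Mfap4 and Mfap5, of elastic microfibrils, from −1.11 and −1.16 to 0.042 and 0.055. Col15a1, a collagen of basement membranes, and Col5a1 differed alike in both, by −0.65 and −0.65 in air and −0.68 and −0.63 under DE, and Col15a1 was called in both. The summed signal of the 14 fibroblast markers was 26609 to 29820 in SH-air, 39987 to 46970 in WKY-air, 30451 to 34008 in SH-DE and 30899.9 to 37911 in WKY-DE. Both DE groups thus lay between the air groups in this sum. The mean log2 signal of Myl7, Myl4 and Sln was 6.28 to 7.27 in SH-air, 11.1 to 13.6 in WKY-air, 6.56 to 11.9 in SH-DE and 7.69 to 12.3 in WKY-DE, and its part in these differences was not tested.

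**Figure D4:**
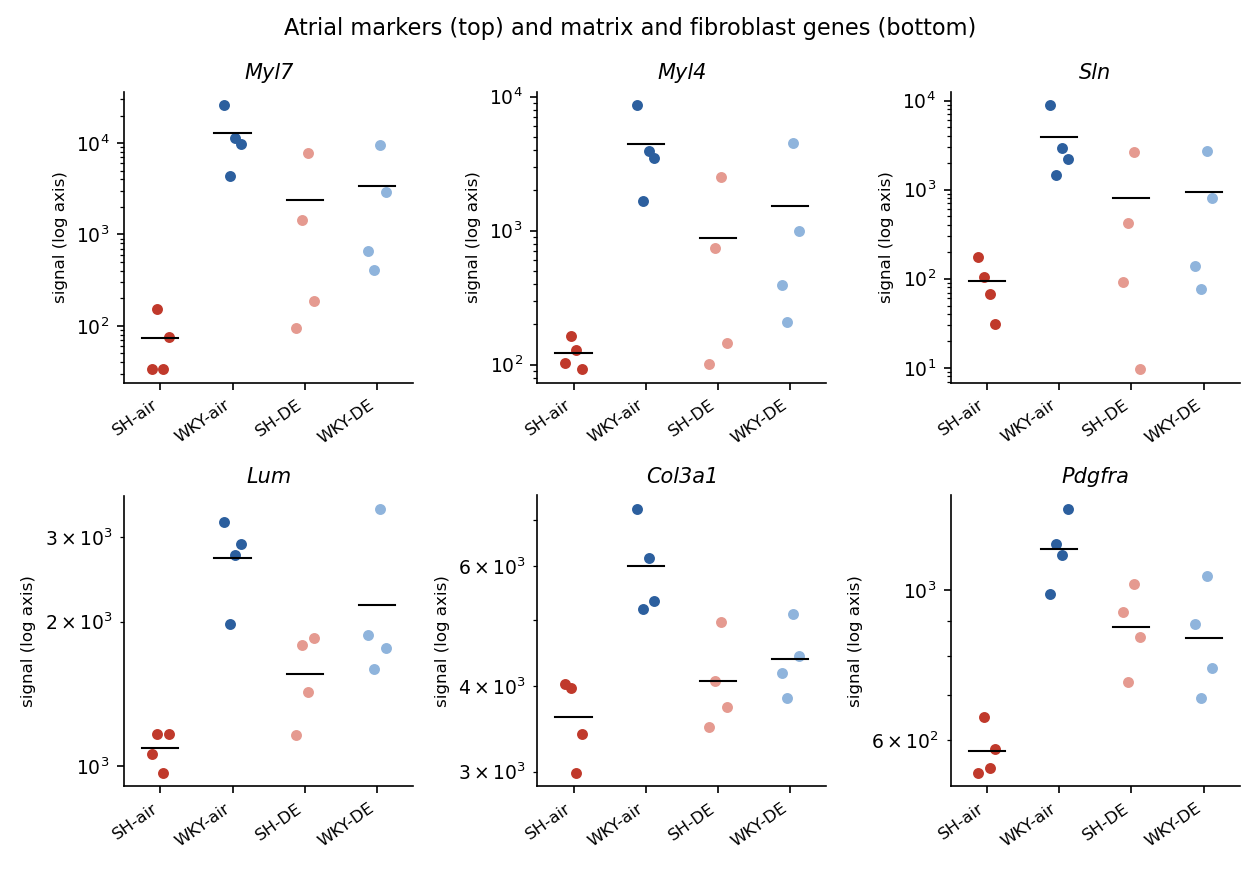
MAS5 signal, on a log axis, of the atrial markers Myl7, Myl4 and Sln and of Lum, Col3a1 and Pdgfra in the 4 groups. Points are arrays and bars are means of 4. All 4 WKY-air arrays lie above all 4 SH-air arrays for each gene, and the SH-DE and WKY-DE arrays overlap.

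Few genes of matrix turnover and signaling were called, and those were lower. Of 27 proteases and inhibitors, Mmp2, Mmp14 and Ctss were lower, with Mmp14, a membrane collagenase, at 240.0, 252, 262 and 258 in SH-air and 619, 414, 436 and 393 in WKY-air (log2 difference −0.82, SE 0.17, limma adjusted p = 0.0168). Of 33 genes of TGF-β signaling, Tgfb3 (−0.95) and Tgfbi (−0.52) were lower and none was higher. Of 23 Wnt genes 4 were lower, namely the secreted inhibitors Sfrp2 (−2.01), Dkk3 (−1.17, also an atrial gene) and Sfrp1 (−0.70) and the receptor Fzd1 (−0.67). Fzd1 was tight in both groups, at 399, 436, 380.3 and 437 against 693, 693, 641 and 636, and differed by −0.55 under DE (limma adjusted p = 0.0612), or by −0.68 and called without SH-DE replicate 3 (limma adjusted p = 0.00452). Dkk3 differed by −0.68 under DE, uncalled, and was called without that array (−0.92). The Wnt median was −0.19 in air and −0.25 under DE.

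Among the lower genes of largest difference, Bcr, named for the breakpoint cluster region, read 32.1, 39.8, 42.8 and 38.9 in SH-air and 670.2, 379, 431 and 417 in WKY-air (log2 difference −3.14, SE 0.59, limma adjusted p = 0.0119). Inf2, a formin that acts on actin filaments, read 34.6, 21, 30.5 and 36 and 169, 179, 165 and 276, and Arhgef40 25.3, 28, 25.4 and 21.7 and 239.9, 124, 157 and 116. The air groups did not overlap for these genes, which for Bcr and Inf2 follows from the rule that named them. The DE arrays of Bcr scattered between 29.4 and 325 in SH rats and between 55.8 and 312 in WKY rats, with no separation of the strains.

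Smaller lists gave few calls. Of 31 immediate early genes, Ccn1 and Zfp36 were higher and Dusp1 and Nr4a1 lower. Nr4a1, a nuclear receptor induced by many stimuli, read 328, 329, 314 and 319.6 in SH-air and 534, 804, 501 and 579 in WKY-air. Of 16 clock genes, Per2, which represses the clock, was higher at 398, 367, 328 and 369 against 259, 151, 135 and 178 (log2 difference 0.99, SE 0.20, limma adjusted p = 0.0153), and Bmal1, which drives it, was lower at 215, 276, 164 and 156 against 350.4, 413, 327 and 399 (log2 difference −0.86, SE 0.19, limma adjusted p = 0.0244). Dbp and Nr1d1, both targets of Bmal1, differed by 0.46 and −0.44 and were not called. Of 27 chaperones, Dnajb4 was higher at 3466 to 4183 against 1730.3 to 2377, Hspb8 was higher (0.49) and Hspb3 was lower (−0.70). Of 32 lysosomal genes, Creg1 and the acid lipase Lipa (0.66) were higher and Ctss was lower. Of 40 measured ribosomal proteins 3 were lower, Rpl18 (−0.55), Rps23 (−0.58) and Rpl3 at 3022, 2803, 3105 and 2803 against 5620.4, 5319, 5782 and 5649 (log2 difference −0.93, SE 0.12, limma adjusted p = 0.000833), and the list's median was −0.24 in air and 0.10 under DE. Of 31 proteasome genes none was called (median −0.0094), and of 19 cardiac transcription factors 1, Tbx5, was lower, which is also an atrial marker (−0.75).

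Among the brightest genes called, Clu, the secreted chaperone clusterin, was lower, at 15591 ± 802 in SH-air against 24938 ± 3373 in WKY-air (SD, n = 4), as were Tsc22d1, a transcriptional regulator, at 8162 ± 897 against 14509.7 ± 1219, Gsn, the actin-severing gelsolin (−0.46), and Pam, which amidates peptides and is abundant in the atria (−0.58). Higher were Arhgap21 (0.75), Retreg1, a receptor for autophagy of the endoplasmic reticulum (0.65), Egln3, an oxygen-sensing hydroxylase (0.50), and Dnajc15, a mitochondrial co-chaperone (0.45). Clu, Tsc22d1 and Arhgap21 stayed called without any 1 array. Under DE none of these genes was called. Of the higher genes of largest difference not yet described, Klc3, a kinesin light chain, read 58.3, 140.2, 85.4 and 61.6 in SH-air and 7.45, 20.9, 9.49 and 14.4 in WKY-air and differed by −0.055 under DE. Hoga1, a mitochondrial aldolase, differed by 1.57 in air and −0.40 under DE, and Tmem120a by 1.57 and 0.64.

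Markers of other cell types overlapped between the air groups in their sums. Endothelial markers summed to 22131 to 24891 in SH-air and 20888 to 24345 in WKY-air, with Gpihbp1 the 1 called of 15. Smooth muscle markers summed to 17942 to 19110.4 and 16936 to 20261, with none of 15 called. None of the erythroid (4), epicardial (6), mast cell (7), Schwann cell and neuron (10) or skeletal muscle (11) markers was called. Of 8 adipocyte markers, Car3 read 76, 86.8, 18.4 and 59.6 in SH-air and 452, 275, 678 and 545 in WKY-air (log2 difference −2.77, SE 0.52, limma adjusted p = 0.0114) and Scd 8.92 to 71.2 and 92.6 to 122, while the summed signal was 24351 to 27655 and 23500.4 to 27688.

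**Figure D5:**
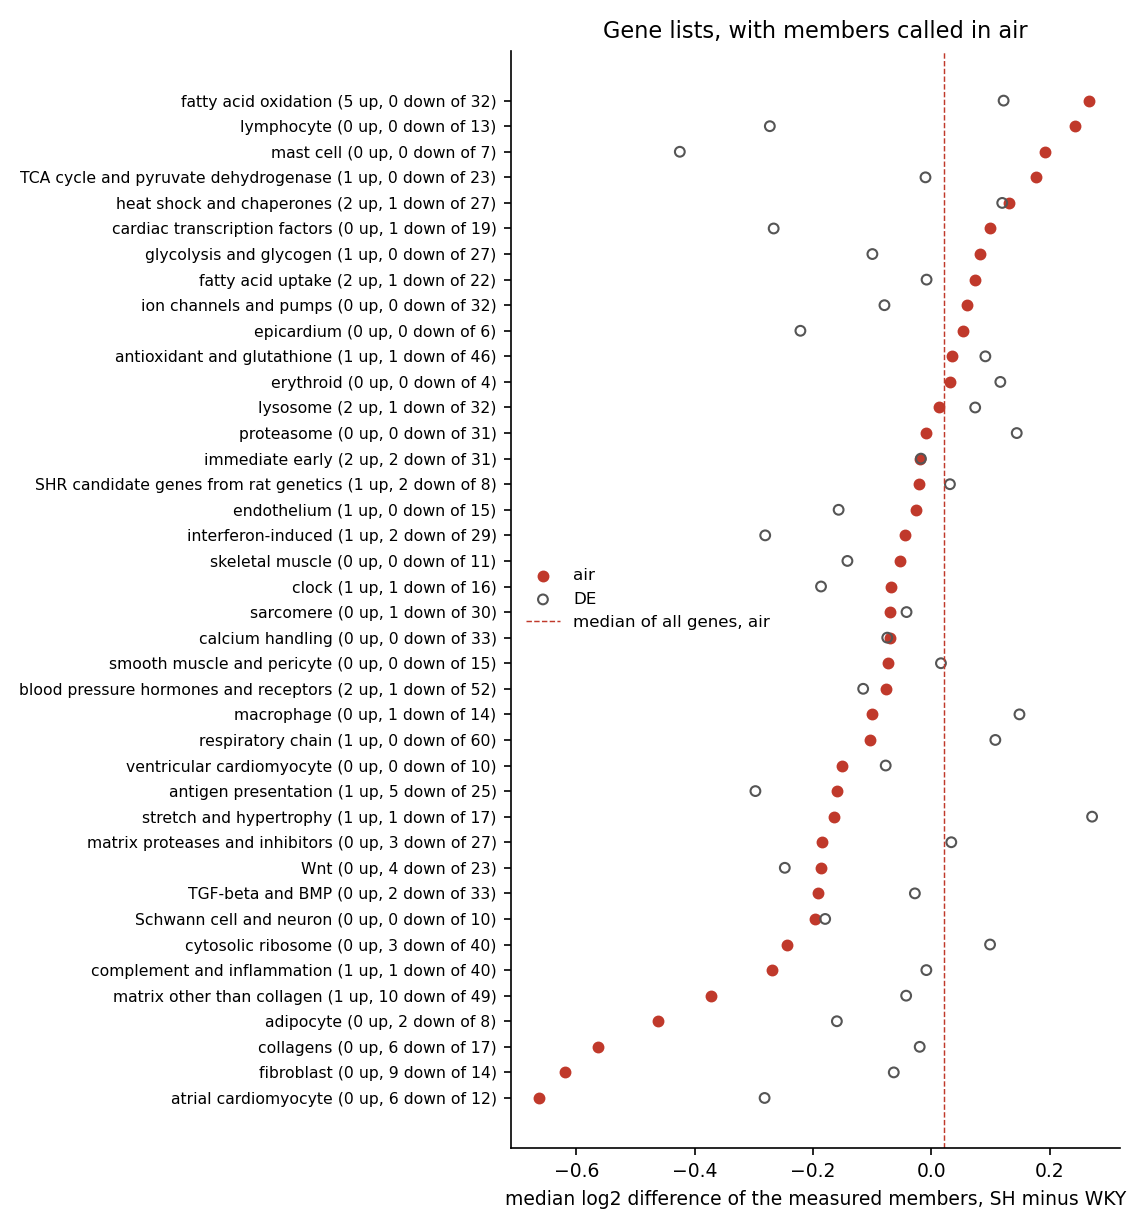
Median log2 difference, SH minus WKY, of the measured members of each gene list shown, in air (filled points) and under DE (open points), with the median of all genes in air as a dashed line. The counts beside each name are the members called in air. Atrial, fibroblast and collagen genes are lowest in air, and the open points of fibroblast and collagen genes lie near 0.

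The strain difference itself was tested for a difference between exposures. The interaction called 1 probe set of 12783 (0.00782%) by limma, and 1598 had an unadjusted p under 0.05, 215 of the 401 air calls among them. The air calls were chosen for their air values, which raises that number. The 1 call, Fam84b, was dim, at 5.05 to 13.8 in SH-air, 57.3, 44.8, 46.9 and 46.5 in WKY-air, 21.3, 29.4, 21.9 and 10.2 in SH-DE and 7.03, 6.96, 6.72 and 14 in WKY-DE. Among the air calls of lowest interaction p, Cdkn1a, the cell cycle inhibitor p21, read 747, 899, 644 and 719 in SH-air and 1817, 2079.6, 1580.1 and 1840.0 in WKY-air, and 703 to 1018 and 590.5 to 988 under DE. Cyp1a1, the enzyme induced through the aryl hydrocarbon receptor, read 13.6, 18, 32.3 and 25.7 in SH-air and 128, 158, 189.6 and 139 in WKY-air (log2 difference −2.15, SE 0.29, limma adjusted p = 0.00115), but 68.8, 159, 271 and 118 in SH-DE and 152, 163, 179 and 104 in WKY-DE.

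Marveld1, a membrane protein, was the 1 probe set called in both exposures with opposite signs, at 491 ± 139 in SH-air and 894 ± 129.5 in WKY-air, and 683 ± 183 and 326 ± 47.6 under DE (SD, n = 4). Without SH-DE replicate 3 its DE difference of 1.00 became 0.94 and was no longer called (limma adjusted p = 0.0794). The other probe set of Marveld1 was not called and ran the other way, at 0.38 in air and −0.42 under DE. Col5a3, Cytl1, Tes and Arhgef40 had log2 differences of −2.33, −1.38, −1.61 and −2.04 in air, against 0.045, −0.049, 0.45 and −0.052 under DE. Smim24 and C1qtnf4 had 0.88 and 0.94 in air, against −0.091 and −0.39 under DE, where every C1qtnf4 signal but 1 was below the offset of 16.1. In air C1qtnf4 was dim too, at 14.6 to 33.7 in SH-air and 1.78 to 6.79 in WKY-air.

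Of the 380 genes called by any probe set, 118 had further probe sets. Of these 167 further probe sets, 118 had the sign of the called one (70.7%), 20 were called in the same direction and 1, of RT1-Ba, in the other. The probes were designed on reference sequence, and whether strain variants lie under them was not tested. On the chromosomes, 26 of the 336 called genes that could be placed (7.74%) had a called gene as next measured neighbour, against 6.34% of all genes. Of the 13 neighbouring pairs, 8 had 1 direction by the brightest probe set of each gene. Among them were Dcn with Lum, S100a10 with S100a11, and RT1-Ba with RT1-Bb, although the dimmer probe sets of these RT1 genes went the other way.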

How the data were processed

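Cardiac RNA of 16 rats was hybridised to 1 Affymetrix Rat 230A array each, 4 arrays in each of WKY-air, SH-air, WKY-DE and SH-DE. The deposited values are probe set intensities that the authors computed with MAS5 at its default setting. By the values, the mean of every array without its lowest and highest 2% was 500.2, a common scale. The study's own gene lists used another normalization of the scanner data, which was not used here. Groups came from the labels. Gene names came from the platform annotation, updated by Entrez ID (12783 with 1 gene, 312 with several, 2771 with none listed). Each gene stands by its probe set of highest mean log2 signal. The offset of 16.1 is the 10th percentile of all values. In limma 3.58.1 (R 4.3.3), 1 model of 4 group means over 16 arrays gave the strain difference in air, under DE, and their interaction, with 12 residual degrees of freedom. The number of arrays limits the precision. The code was tested on simulated data. In a check of pairing by number, same-numbered arrays gave correlations of −0.096 to 0.017. These are not correlations of the signals themselves, whose median r within groups was 0.954 to 0.966. No pairing by number was seen, although so few arrays cannot exclude it. No arrays held identical values (highest r 0.968). Named genes were the 12 of largest difference in each direction with groups that did not overlap, the 10 brightest in each direction, up to 4 of lowest p per gene list, all SHR candidates, the tissue markers and the 10 of lowest interaction p. The result of 1 gene list is not reported here. Genes and lists were chosen with earlier results of these data known. Alternatives changed the offset, normalization, filter, moderation, weights, arrays, block and atrial covariate. The scaling assumes equal total signal between arrays, so a shift of all genes would not be seen.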

Additional observations from a re-analysis of the deposited data

Results flagged for a closer look

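In 10 of the 212 air groups of 4 arrays examined over the 106 named genes, 1 array lay far from the other 3 relative to the range of its group, where chance gives about 1 in 20. In WKY-air, replicate 1 was low for Dusp1 (signal 1714, the others 2212 to 2279) and Gucy1b1 (162, the others 199 to 206) and high for Lrrc10 (6557, the others 5251 to 5338). Replicate 3 was low for Ifit1 (37.8, the others 141 to 149). Replicate 4 was low for Eno1 (3848, the others 3943 to 3957) and high for Col5a3 (222, the others 111 to 125) and Inf2 (276, the others 165 to 179). In SH-air, replicate 1 was low for B2m (13663, the others 17521 to 18400.1) and high for Tnni3 (40334, the others 34676 to 34966), and replicate 2 was high for Nppa (23097, the others 11633 to 12405).

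The strain difference of Fam84b differed between exposures, with a log2 interaction of 1.86 (DE minus air), and it was the 1 probe set past the adjusted threshold of that test.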

How the results depend on the processing

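The air comparison called 401 probe sets (168 higher, 233 lower), 41 of them alike under DE, with 1 interaction. These 5 counts became 84, 36, 48, 20 and 0 at an adjusted p under 0.01. Without the dimmest 40% of probe sets, 625 were called in air, 276 of them higher, 91 alike under DE and 2 by interaction, and with an intensity trend and robust moderation 620, 269, 351 lower, 92 and 2. The air arrays fitted alone gave 135, 53 and 82. With the replicate block, 242, 93 and 149 were called and 0 by interaction, 231 of the 242 shared with the 401. With the atrial covariate 5, 3, 2, 3 and 0 were called. Calls alike under DE numbered 64 with an offset at the 25th percentile, 80 with array weights and 70 without both replicate 3 arrays of the DE groups, a choice made after seeing the data. Interactions numbered 0 with an offset of 1, 4 with the higher offset, 6 after quantile normalization and 0 without both arrays. Leaving out 1 array gave 197 to 452 air calls, 81 to 188 higher, 116 to 264 lower, 26 to 83 alike under DE and 0 to 6 interactions. The lowest air counts came without SH-air replicate 4 (197) and WKY-air replicate 4 (208), and the calls alike under DE were fewest without SH-DE replicate 2 (26) and most without SH-DE replicate 3 (83). Of the 106 named genes, between 2 and 38 lost their call when 1 array was left out. At an adjusted p under 0.01, 66 lost it, and with the air arrays fitted alone 48. With the replicate block 33 lost it, and with the atrial covariate 93, besides those that reversed. Directions reversed for uncalled genes: quantile normalization turned Myh6 (0.10) and Tnni3 (0.053), array weights Myh6 (0.059), and the atrial covariate Myh6 (0.51), Myl2 (0.27), Nppa (0.0085), Ogn (0.27) and Tnni3 (0.27), and Sln (1.15), which had been called. Folr1 turned without SH-air replicate 2 (−0.030) or 4 (−0.011) or WKY-air replicate 4 (−0.13), with a range of −0.13 to 0.20 over the arrays left out, and Myh6 turned without WKY-air replicate 1 (0.11) or 3 (0.021), with a range of −0.16 to 0.11. Apart from Sln, whose value the covariate sets by construction, the cause of these changes was not tested.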
